A study of Danio rerio with 18 samples.

Results

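The vacuolar ATPase (V-ATPase), the cathepsins and the lysosome-associated membrane proteins (lamp) were taken as a gene group. Its members were all rows of the count tables whose RefSeq accession maps to a zebrafish symbol starting with atp6v, atp6ap, lamp and a digit, or cts and a letter. There were 40 such accession rows of 39 genes, out of 32820 rows in all, 20215 of which have a symbol. They hold 8 rows of V0 subunits, 12 of V1 subunits, 3 of V-ATPase accessory proteins, 12 of cathepsins and 5 of lamp genes. A further 10 symbols fit the rule, among them ctsl.1, ctslb and ctss1, and were not analysed here.

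RNA sequencing counts came from 18 libraries of zebrafish pronephric duct, the tube of the embryonic kidney, at 30 hours after fertilisation (hpf). The 8 actl6a libraries are from embryos labelled as actl6a knockdown. A morpholino against actl6a, an antisense molecule, had been injected at the 1-cell stage. The Actl6a protein, also named Baf53a, belongs to SWI/SNF complexes, which remodel chromatin. The 10 control libraries are from embryos labelled WT that received a standard control morpholino. All embryos carried a transgene labelled Na, K-ATPase alpha1A4:GFP, which marks the pronephros. After collagenase treatment of 15 embryos, about 10 green duct fragments were picked by eye, so attached tissue can be carried along. The labels do not say whether a library is 1 duct or a pool, or whether replicates are from separate injections. The p-values therefore measure the spread between these libraries. Each group has its own count table, so a batch cannot be told apart from the group.

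The V-ATPase is the proton pump of endosomes and lysosomes. Its V1 part in the cytosol splits ATP, and the turning of its shaft drives protons through the V0 part in the membrane. The acid it makes lets cathepsins, the proteases of the lysosome, mature and work, while lamp proteins coat the inner face of the lysosome membrane. Kidney tubule cells rely on this system to break down protein taken up by endocytosis, and acid-secreting kidney and skin cells also carry the pump at their surface.

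Library totals ran from 1731521 to 3393310 counts (actl6a) and from 1564673 to 3301873 counts (control). Levels are given in CPM, with each library total multiplied by its TMM factor, so that they compare a gene between libraries and not genes with each other. The targeted gene, actl6a, was at 139 ± 12.4 CPM in actl6a libraries and 109.5 ± 15.6 CPM in controls (SD, n = 8 and n = 10). That rise in its transcript, by 0.34 on the log2 scale (adjusted p = 0.0137, edgeR), does not measure its protein. Duct markers were present, such as cdh17 at 1121 CPM in actl6a libraries and 1128 CPM in controls, and atp1a1a.4 at 1400.1 CPM in actl6a libraries and 1614 CPM in controls. Of 20 tested pronephros markers 1 was called higher and 0 lower, or 5.0% called against 16.4% over all accessions. The log2 fold change was below 0 for 14 of the 20, with a median of −0.07. In such bulk tissue, fewer cells of a type and less RNA per cell cannot be told apart.

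Of the 40 member rows, 28 passed the filter on low counts and were tested. Transcripts of 3 members rose in actl6a libraries and 0 fell, at an adjusted p under 0.05 in edgeR's quasi-likelihood test. All 3 encode parts of the proton pump. They are atp6v0a2b, an isoform of the large membrane subunit a of V0, atp6v0b, a proteolipid subunit of the V0 rotor ring, and atp6v1ba, an isoform of the nucleotide-binding B subunit of V1. The share called higher was 10.7% of the tested members, against 7.90% of 14462 accessions over the whole table, and the share called lower was 0 members against 8.52%. An unadjusted p under 0.05 was found for 8 members, the 3 called ones and 5 others, against 31.2% of all accessions. In edgeR's test the members' share called higher is thus near that of the whole table. DESeq2 called 6 of the 28 tested members higher and 0 lower. Over all 14462 accessions it called 1574 higher, or 10.9%, and 1475 lower. In DESeq2 the members' share called higher was thus above that of the whole table. With so few rows, 6 calls do not set the members apart from it.

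The transcript of atp6v0a2b (NM_001122747.2) ran from 13.7 to 67.5 CPM with a median of 40.1 in actl6a libraries, against 5.20 to 20.6 CPM with a median of 9.75 in controls. In 7 of 8 actl6a libraries it was above every control. The exception was actl6a replicate 2, which fell within the control range, so the groups overlap. It rose by 1.88 ± 0.297 (log2 fold change ± SE), a 3.69-fold difference with a 95% interval of 2.38 to 5.70 (adjusted p = 0.000461). Subunit a2 in mammals sits mainly in the Golgi and endosomes. Counts of this row were low, from 34 to 186 per actl6a library and from 8 to 56 per control.

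The transcript of atp6v0b (NM_199561.2) ran from 124.8 to 153 CPM with a median of 139.6 in actl6a libraries, against 80.7 to 159 CPM with a median of 99.9 in controls. Every actl6a library was above the control median, and 8 of 10 controls were below every actl6a library. The groups overlap because control replicate 4 had 159 CPM, the highest value of all, and control replicate 1 had 129 CPM. The log2 fold change was 0.42 ± 0.114 (SE), or 1.34-fold with a 95% interval of 1.13 to 1.58 (adjusted p = 0.0166).

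The B1 isoform of the B subunit of V1 is the one of acid-secreting kidney cells in mammals. The transcript of atp6v1ba (NM_182878.1), also named vatB1, ran from 132 to 255 CPM with a median of 189 in actl6a libraries. In controls it ran from 106 to 185 CPM with a median of 129. The control median was exceeded in all 8 actl6a libraries and the control maximum in 4, and 6 of 10 controls were below every actl6a library. The log2 fold change was 0.50 ± 0.120 (SE), or 1.42-fold with a 95% interval of 1.19 to 1.69 (adjusted p = 0.00831). The lowest actl6a library was again replicate 2.

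**Figure D1:**
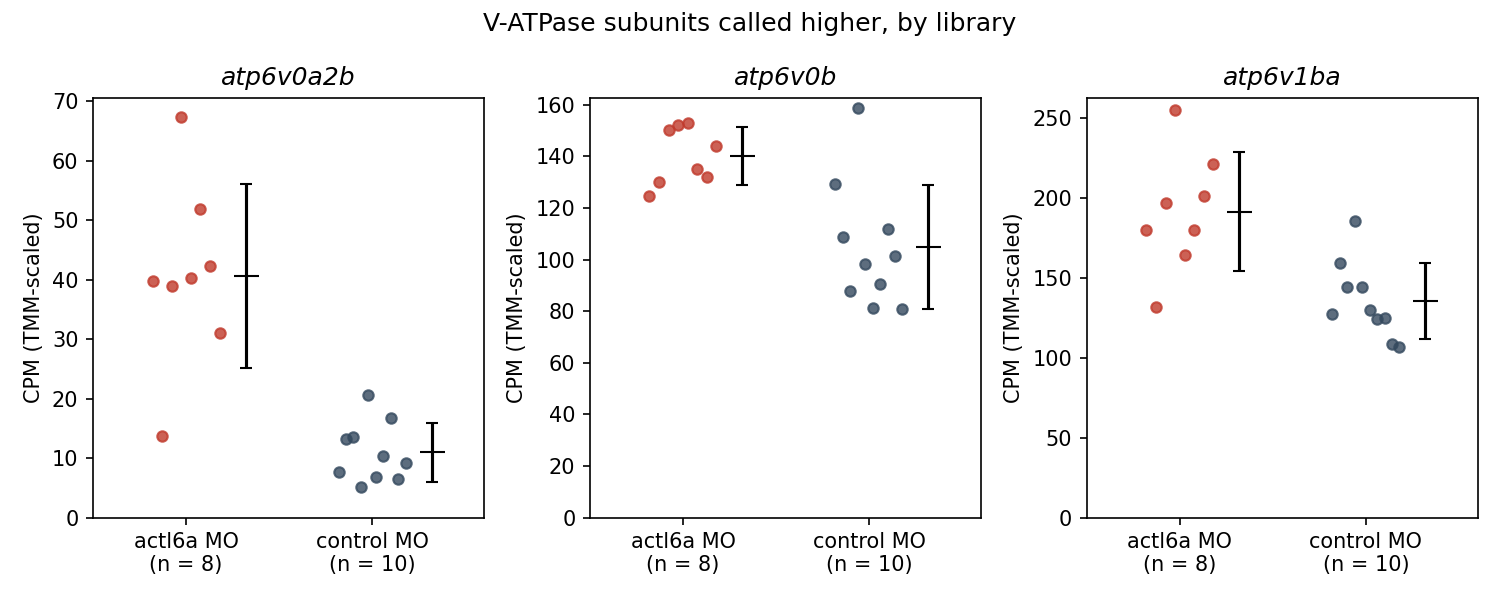
Levels of the 3 V-ATPase transcripts called higher, in CPM scaled by TMM factors. Each point is a library, 8 with the actl6a morpholino (MO) at left and 10 with the control morpholino at right, and the bars give the mean and SD. In all 3 panels the actl6a points lie mostly above the control points, and the groups overlap.

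The calls of these 3 members held when any 1 of the 18 libraries was left out, with log2 fold changes of 1.73 to 2.03 for atp6v0a2b, 0.38 to 0.50 for atp6v0b and 0.43 to 0.56 for atp6v1ba. With replicate number as a further term, over replicates 1 to 8, atp6v0a2b and atp6v1ba were called. The transcript of atp6v0b was not (adjusted p = 0.0564, edgeR), and in the same libraries without that term its adjusted p was 0.04995. Markers of some other tissues moved with the group. In edgeR's test 0 of 17 skeletal muscle rows, 0 of 17 blood rows and 0 of 7 hatching gland rows were called, against 16.4% of all accessions. Their median log2 fold changes were 0.36, 0.82 and 0.11. Of the 17 blood rows, 15 had a log2 fold change above 0 and 2 below. Summed CPM of the blood markers ran from 651 to 5632.5 with a median of 1075 in actl6a libraries. In controls it ran from 375 to 2376 with a median of 498. In limma-voom 4 of the 17 blood rows were called higher and 0 lower, against 1244 higher of 14462 accessions. Neural markers were called higher in 4 of 8 tested rows and lower in 0, with a median log2 fold change of 2.02. Epidermis markers were called higher in 2 of 15 tested rows, or 13.3%, and lower in 0. Their median log2 fold change was 1.25, with all 15 above 0. Over all accessions 7.90% were called higher. Summed CPM of the neural markers ran from 152 to 895 in actl6a libraries and from 70.9 to 163 in controls. Those of the epidermis markers ran from 1771 to 6460.5 in actl6a libraries and from 1662 to 2888 in controls. Those of the yolk and liver markers ran from 267 to 455 in actl6a libraries and from 28.0 to 309.95 in controls, and 5 of 7 tested yolk and liver markers were called higher, or 71.4% against 7.90% over all accessions, with a median log2 fold change of 2.07. That list is not among the covariates below, and its part in the pump results was not tested. With scores of skeletal muscle, blood, epidermis and neural markers as covariates, 109 of 14462 accessions were called. The 3 members were among them, at 2.55 for atp6v0a2b (adjusted p = 0.0326), 0.78 for atp6v0b (adjusted p = 0.0485) and 0.85 for atp6v1ba (adjusted p = 0.0326) in edgeR's test.

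Ionocytes, the skin cells that secrete acid or take up ions, also express V-ATPase. Of 22 ionocyte markers, 19 had a row and 7 were tested, of which 1 was called higher and 3 lower. The share lower was 42.9% against 8.52% over all accessions, and the median log2 fold change was −0.87. Their summed CPM ran from 1324 to 1763 in actl6a libraries and from 1204 to 1720 in controls, and the list includes ca2 and atp1a1a.1, which made up much of that sum. The defining ionocyte factors foxi3a and foxi3b were at 3.78 and 1.36 CPM in actl6a libraries and at 3.79 and 1.495 CPM in controls, and gcm2 had 3 counts over all libraries. In single libraries 3 counts make 0.884 to 1.92 CPM, so foxi3b is too low to compare the groups. The part of ionocytes in the pump results was not tested.

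The rest of the V0 sector showed narrow intervals around no difference in its well-counted subunits. The stalk subunit d, atp6v0d1, was at 238 ± 20.2 CPM in actl6a libraries and 230 ± 21.7 CPM in controls, with a 95% interval of the fold from 0.933 to 1.15. Subunit e, atp6v0e1, was at 210 ± 15.8 CPM in actl6a libraries and 208 ± 33.0 CPM in controls, with an interval from 0.884 to 1.15. The interval of atp6v0b, from 1.13 to 1.58, overlaps both, and a difference between subunits was not tested. The c-ring subunit gene atp6v0cb differed mainly between actl6a libraries. It was at 63.04 and 59.3 CPM in actl6a replicates 1 and 2 and between 6.64 and 20.7 CPM in the other 6 actl6a libraries, against 3.81 to 27.9 CPM in controls. Those 2 libraries also had the highest summed neural markers, 645 and 895 CPM, and the highest summed skeletal muscle markers, 15865 and 13292 CPM. Actl6a replicate 1 had the highest summed blood markers as well, 5632.5 CPM. Muscle sums were also high in actl6a replicate 4, at 11272 CPM, and control replicate 1, at 12151 CPM, where atp6v0cb was at 6.64 and 27.9 CPM. The part of these tissues in the values of atp6v0cb was not tested.

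In the V1 sector, 10 rows were tested. The catalytic A subunit has a pair of genes. The row of atp6v1aa was at 115 ± 12.9 CPM in actl6a libraries and 123 ± 13.8 CPM in controls, a log2 difference of −0.10 ± 0.0839. The row of atp6v1ab ran from 31.6 to 84.1 CPM with a median of 55.7 in actl6a libraries, against 17.5 to 65.2 CPM with a median of 33.9 in controls, a log2 difference of 0.64 ± 0.275 that was not called (adjusted p = 0.116, edgeR). It was called in limma-voom with sample weights, at 0.77 (adjusted p = 0.0430). The other B subunit gene, atp6v1b2, the counterpart of the widely expressed mammalian B2, ran from 7.79 to 50.4 CPM with a median of 27.4 in actl6a libraries, against 8.87 to 24.8 CPM with a median of 16.9 in controls. Its log2 difference of 0.83 ± 0.312 was larger than that of atp6v1ba but was not called (adjusted p = 0.0759, edgeR). DESeq2 called it (adjusted p = 0.0415), and so did edgeR without actl6a replicate 7 (adjusted p = 0.0246), the library with the lowest level.

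The C subunit controls the joining of V1 to V0. Its genes atp6v1c1a and atp6v1c1b had log2 differences of 0.13 ± 0.0988 and 0.18 ± 0.113. The central shaft holds the D and F subunits. The row of atp6v1d was at 141 ± 12.3 CPM in actl6a libraries and 147 ± 18.9 CPM in controls, and that of atp6v1f at 241 ± 19.2 CPM in actl6a libraries and 216 ± 26.8 CPM in controls (adjusted p = 0.649 and 0.180, edgeR). The outer stalks hold the E and G subunits. The row of atp6v1e1b was at 282 ± 22.8 CPM in actl6a libraries and 302 ± 44.5 CPM in controls, with the control median exceeded in 0 of 8 actl6a libraries, a log2 difference of −0.10 ± 0.0892 (adjusted p = 0.479, edgeR). That of atp6v1g1 was at 372 ± 24.3 CPM in actl6a libraries and 323 ± 35.6 CPM in controls, with the control median exceeded in 8 of 8 actl6a libraries. Its log2 difference of 0.20 ± 0.0732 missed the threshold (adjusted p = 0.0621, edgeR). It passed with RLE factors (adjusted p = 0.0400), in DESeq2 (adjusted p = 0.0153) and without control replicate 2 (adjusted p = 0.0416). The accessory subunit gene atp6ap1b, which encodes the protein known as Ac45 in mammals, had a log2 difference of 0.08 ± 0.0914.

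**Figure D2:**
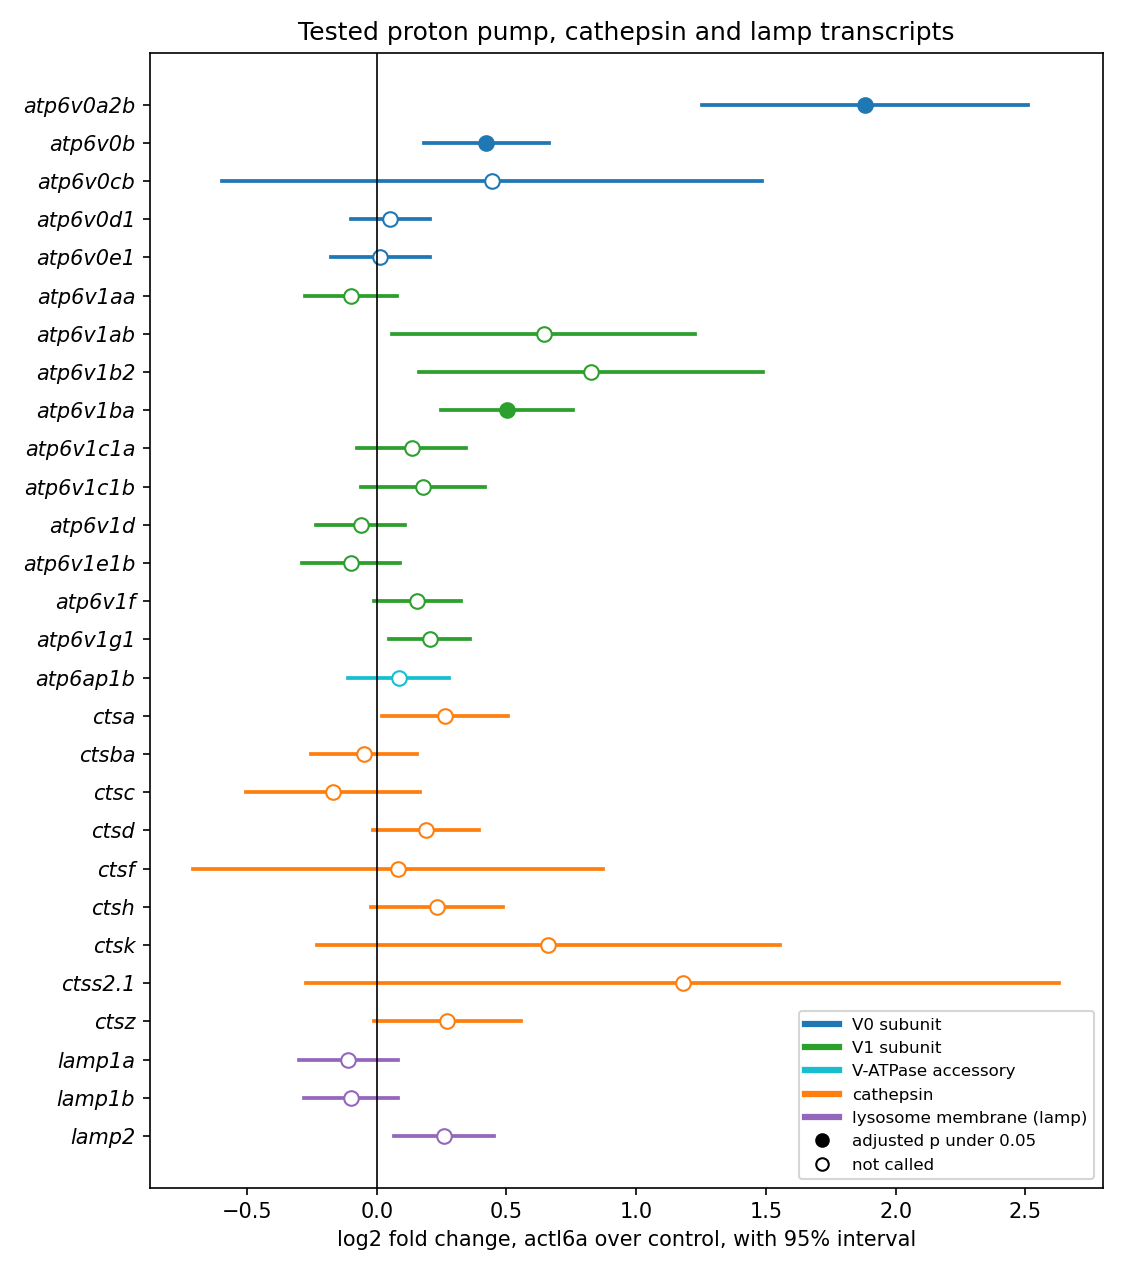
Log2 fold change of actl6a over control for the 28 tested members, with 95% intervals (log2 fold change ± 2.12 SE). Filled points are the 3 members with an adjusted p under 0.05, atp6v0a2b, atp6v0b and atp6v1ba. Intervals are narrow for most pump subunits and wide for atp6v0cb, ctsf, ctsk and ctss2.1.

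None of the 9 tested cathepsin rows was called in edgeR's test, against 16.4% of all accessions, and DESeq2 also called 0. An unadjusted p under 0.05 was found for 1, against 31.2% of all accessions. With so few rows, 0 calls do not set the cathepsins apart from the whole table. Cathepsin D, the aspartic protease of the lysosome, ctsd, was at 273 ± 44.1 CPM in actl6a libraries and 239 ± 30.7 CPM in controls, a log2 difference of 0.19 ± 0.0971 (adjusted p = 0.189, edgeR). The serine carboxypeptidase gene ctsa, whose protein also protects lysosomal neuraminidase, ran from 105 to 157 CPM with a median of 142 in actl6a libraries, against 81.8 to 143 CPM with a median of 123 in controls. It was above the control median in 7 of 8 actl6a libraries and had a log2 difference of 0.26 ± 0.114 (adjusted p = 0.119, edgeR).

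The cysteine proteases split into well-counted rows with close groups and rows that varied between libraries. Cathepsin B, ctsba, was at 156 ± 25.7 CPM in actl6a libraries and 161 ± 18.6 CPM in controls, a log2 difference of −0.05 ± 0.0960 with a fold interval of 0.839 to 1.11. The carboxypeptidase gene ctsz and the aminopeptidase gene ctsh had log2 differences of 0.27 ± 0.133 and 0.23 ± 0.120, with adjusted p of 0.171 and 0.194 in edgeR's test. The dipeptidyl peptidase gene ctsc was at 55.95 ± 17.1 CPM in actl6a libraries and 63.01 ± 9.27 CPM in controls. The row of ctsf was low, at 4.98 ± 2.43 CPM in actl6a libraries and 4.72 ± 2.38 CPM in controls. RefSeq lists another NM accession of ctsf that was not analysed here, so this is the level of 1 accession and not of the gene.

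The gene of cathepsin K, the collagen-degrading protease of mammalian osteoclasts, ctsk, ran from 19.2 to 147 CPM with a median of 49.3 in actl6a libraries, against 7.65 to 82.3 CPM with a median of 37.4 in controls. A cathepsin S gene, ctss2.1, whose mammalian counterpart acts in antigen-presenting cells, ran from 2.94 to 24.3 CPM with a median of 9.34 in actl6a libraries, against 0 to 24.9 CPM with a median of 3.37 in controls. Control replicate 6, at 24.9 CPM, was above every actl6a library, while the other 9 controls had at most 4.18 CPM and overlapped only the 2 lowest actl6a libraries. The log2 difference of 1.18 ± 0.685 was not called (adjusted p = 0.252, edgeR), and without control replicate 6 it was called, together with lamp2, so that 5 members were then higher. The genes ctsk, ctss2.1 and ctss2.2 lie next to each other in the RefSeq gene order. Of 25 leukocyte markers 17 had a row and 6 were tested, with 2 higher and 0 lower. The share higher was 33.3% against 7.90% over all accessions, with a median log2 fold change of 0.62. Their summed CPM ran from 188 to 601 in actl6a libraries and from 115 to 208 in controls. The 601 was that of actl6a replicate 2, with the next at 299. Without that library 1 marker was called and the median was 0.06. Of the 6 tested rows, 5 had a log2 fold change above 0 and 1 below. The gene apoeb is on both this list and the yolk and liver list. The defining macrophage markers mpeg1.1 and csf1ra were at 0.376 and 0.116 CPM in actl6a libraries and at 0.347 and 0.447 CPM in controls. In these libraries 3 counts make 0.884 to 1.92 CPM, so these 2 markers are too low to compare the groups. The part of leukocytes in the values of ctss2.1 was not tested.

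Among the lysosome membrane genes, lamp1a and lamp1b, which encode the main lysosomal coat glycoprotein, had log2 differences of −0.11 ± 0.0896 and −0.10 ± 0.0850, with adjusted p of 0.435 and 0.453 in edgeR's test. The row of lamp2 (NM_001013533.1), a glycoprotein that also acts in autophagy, ran from 131 to 173 CPM with a median of 155 in actl6a libraries, against 102 to 158 CPM with a median of 133 in controls. The control median was exceeded in 7 actl6a libraries and the control maximum in 3. Its log2 difference of 0.26 ± 0.0911 missed the threshold (adjusted p = 0.0569, edgeR). It passed with RLE factors (adjusted p = 0.0405), in DESeq2 (adjusted p = 0.0302), and without control replicate 5 (adjusted p = 0.0325) or control replicate 6 (adjusted p = 0.0469).

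The pump and the proteases were then set side by side. The 16 tested V-ATPase rows had a median log2 fold change of 0.17, from −0.10 to 1.88, with 13 above 0 and 3 below. For the 9 tested cathepsin rows the median was 0.23, from −0.17 to 1.18, with 7 above 0 and 2 below. Over all 14462 tested accessions the median was 0.01, with 7375 above 0 and 7087 below. Among rows at 50 CPM or more on average, the medians were 0.11 for 12 V-ATPase rows, 0.21 for 6 cathepsin rows and −0.10 for 3 lamp rows. The median absolute log2 fold change was 0.18 over the 28 tested members and 0.31 over all tested accessions.

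Summed over the tested rows, V-ATPase transcripts were at 2511 ± 149 CPM in actl6a libraries and 2263 ± 221 CPM in controls, and cathepsin transcripts at 933 ± 151 CPM in actl6a libraries and 821 ± 84.1 CPM in controls (SD, n = 8 and n = 10). These sums are led by the well-counted rows, and the groups overlap in both. The mean of log2 CPM, which gives each row the same weight, was 6.88 ± 0.0880 for V-ATPase rows in actl6a libraries and 6.58 ± 0.144 in controls. The control maximum was exceeded in 7 of 8 actl6a libraries, though narrowly in replicate 2 (6.771 against 6.767). This mean takes in the 3 called rows, with atp6v0a2b at 1.88, while the median log2 fold change of the 16 rows was 0.17. For cathepsin rows the mean of log2 CPM was 5.91 ± 0.200 in actl6a libraries and 5.58 ± 0.269 in controls. That mean takes in ctss2.1 at 1.18 and ctsk at 0.66, which varied between libraries and were not called. The median log2 fold change of the 9 cathepsin rows was 0.23. The difference between the pump mean and the cathepsin mean was 0.97 ± 0.227 in actl6a libraries and 1.00 ± 0.271 in controls. The ratio of the V-ATPase sum to the cathepsin sum was 2.74 ± 0.335 in actl6a libraries and 2.76 ± 0.190 in controls, so the group means lay closer together than either SD. Its size depends on transcript lengths, and only its difference between groups is read. Single libraries moved it more than the group did. Actl6a replicates 3 and 5 had the lowest ratios, 2.19 and 2.35, where the cathepsin sums were highest, at 1227 and 1083 CPM, and ctsk was at 147 and 106 CPM. The largest ratio, 3.13, was that of control replicate 2, where the V-ATPase sum was the highest of the controls, at 2673 CPM. Its cathepsin sum, 854 CPM, was above the control mean of 821 CPM, though ctsk was at 7.65 CPM.

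**Figure D3:**
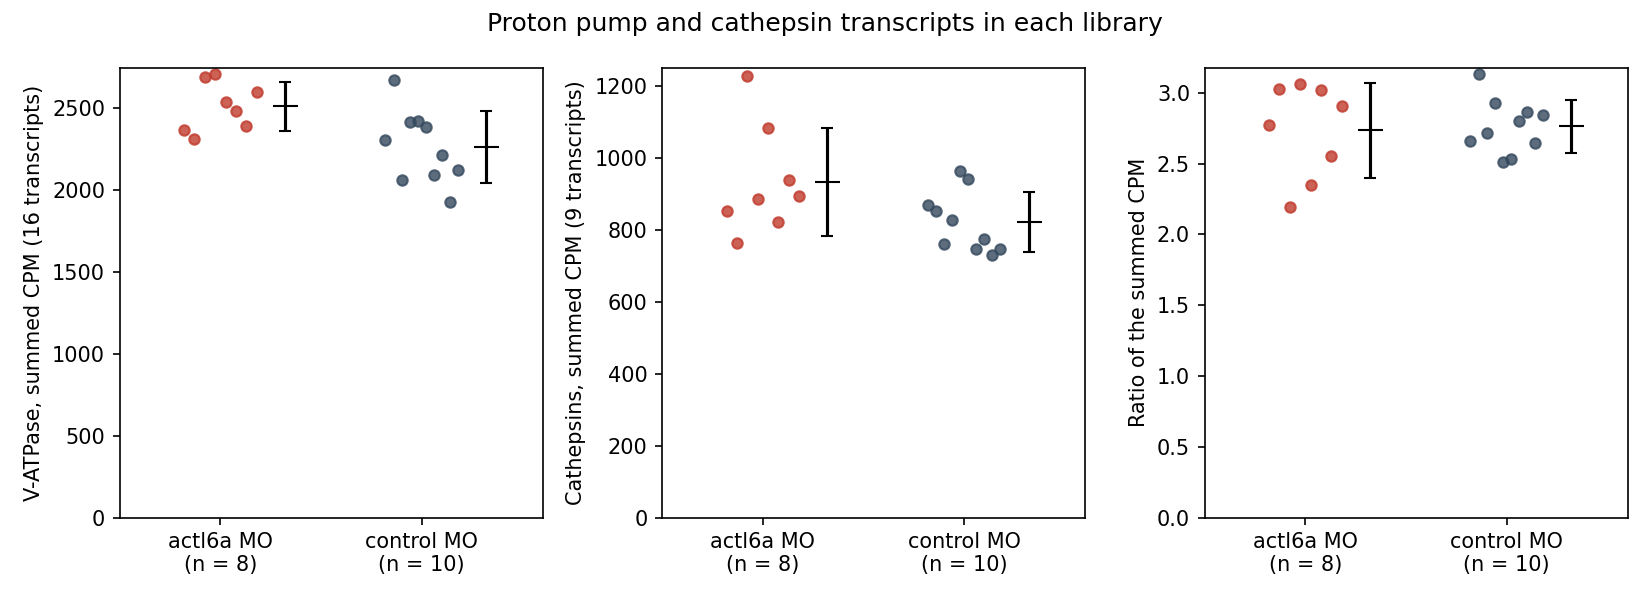
Summed CPM of the 16 tested V-ATPase rows (left), of the 9 tested cathepsin rows (middle) and the ratio of both sums (right). Points are libraries, 8 with the actl6a morpholino (MO) and 10 with the control morpholino, with mean and SD. Mean ratios are 2.74 in actl6a libraries and 2.76 in controls.

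The members differed in how much they varied between libraries of a group. The coefficient of variation (CV, the SD over the mean of CPM) was under 20% in both groups for 17 of the 28 tested members and over 50% in at least 1 group for 5. For atp6v1g1 it was 6.55% in actl6a libraries and 11.02% in controls, where counting alone would give 3.22% and 3.35%, and for atp6v0d1 it was 8.46% in actl6a libraries and 9.46% in controls. At the other end, ctsk varied by 70.8% in actl6a libraries and 58.5% in controls, where counting alone would give 8.08% and 9.69%, and atp6v0cb by 105% in actl6a libraries and 48.9% in controls. For the called members the CV was 38.0% in actl6a libraries and 45.4% in controls (atp6v0a2b), 7.90% in actl6a libraries and 23.0% in controls (atp6v0b), and 19.4% in actl6a libraries and 17.6% in controls (atp6v1ba). The actl6a libraries are thus tight for atp6v0b, and the controls spread.

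**Figure D4:**
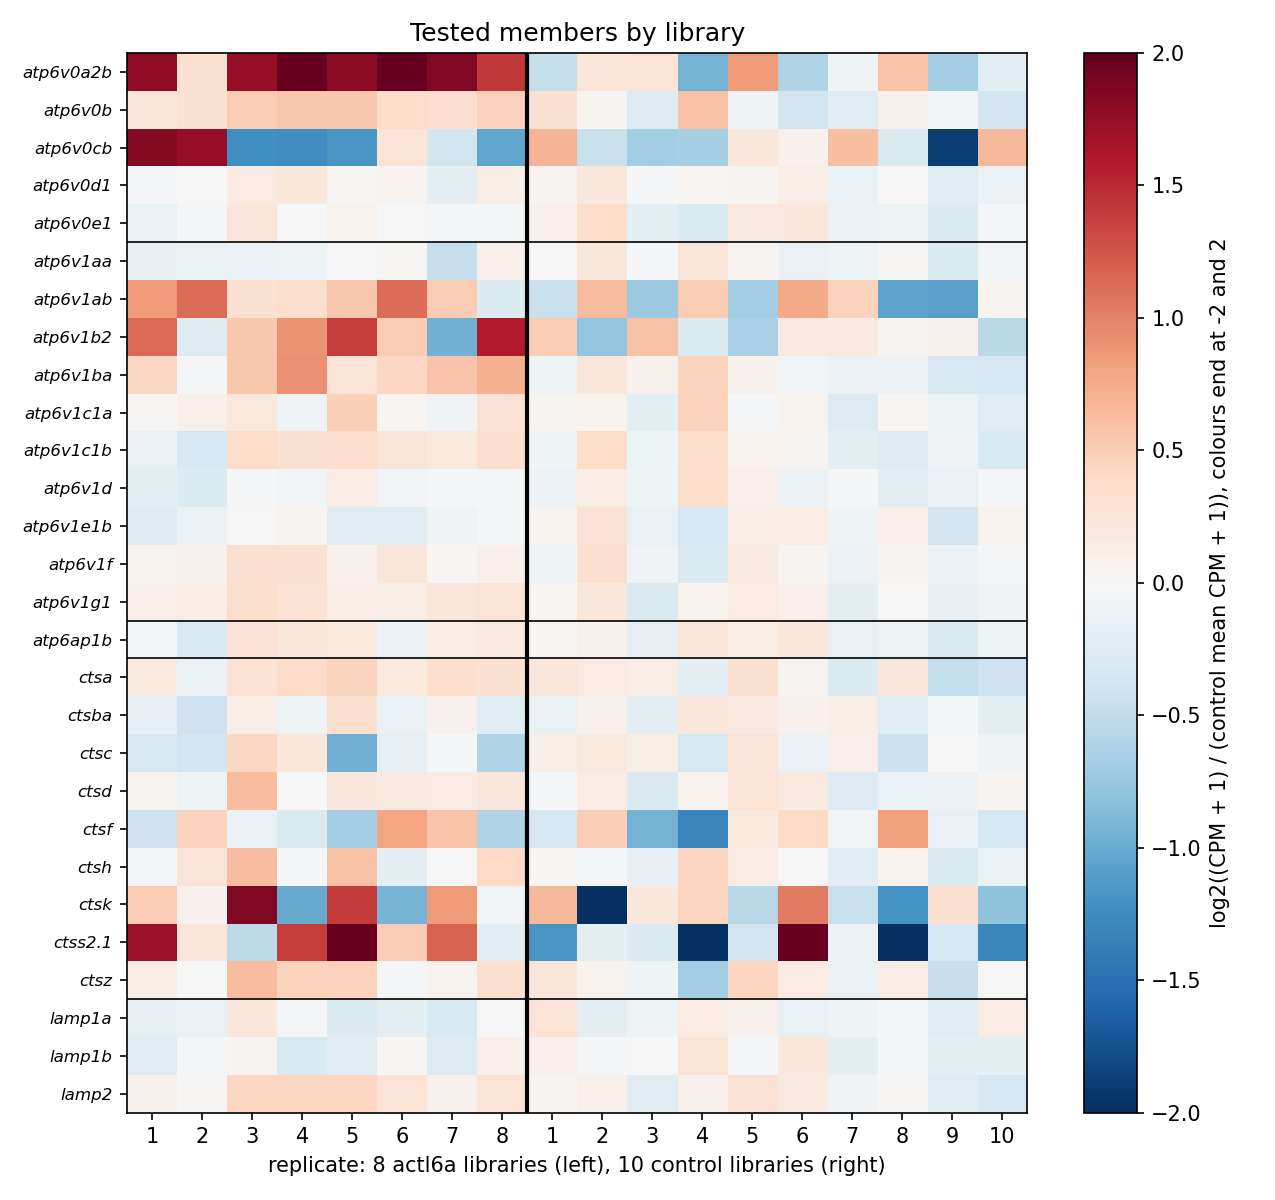
Each row is a tested member and each column a library, 8 actl6a libraries at left of the black line and 10 controls at right. Colour gives log2 of CPM plus 1 over the control mean plus 1, and colours end at −2 and 2. The row of atp6v0a2b is red across the actl6a side apart from replicate 2, most V1 rows are near white, and atp6v0cb, ctsk and ctss2.1 change from library to library.

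The other 12 member rows had too few counts to be tested. Of these, 6 belong to genes for which RefSeq lists another NM accession that was not analysed here, namely atp6ap2, atp6v0a1a, atp6v0a1b, atp6v0ca, atp6v1h and ctsla. Their low counts, from 1 to 64 over all 18 libraries, are those of 1 accession and do not give the level of the gene. The other untested rows are atp6ap1lb, atp6v1c2, ctsll, ctss2.2, lamp3 and a second lamp2 accession, with 7 to 185 counts. The cathepsin L-like row ctsll had 37, 18, 16 and 38 counts in actl6a replicates 1, 2, 4 and 6 and at most 6 in the other 4 actl6a libraries, against at most 14 in any control. The C subunit isoform row atp6v1c2 had counts of 1 and 3 in the only 2 actl6a libraries where it was seen, against 4 to 12 counts in 5 of 10 controls. No member had all actl6a libraries above or below all controls among the 28 tested, which over the whole table held for 0.933% of accessions upward and 0.837% downward. Several members are close copies of each other, such as atp6v1c1a and atp6v1c1b or ctss2.1 and ctss2.2, and how reads that fit both were counted is not given in the sources used here.

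Genes outside the rule that belong to the same system were taken from lists. Of 15 tested genes of the TFEB family and the Rag-Ragulator-mTORC1 machinery, which reads the state of the lysosome and controls its gene programme, 5 fell and 0 rose, or 33.3% lower against 8.52% over all accessions. The median log2 fold change was −0.46. The Rag GTPase gene rraga was at 181 ± 17.9 CPM in actl6a libraries and 242 ± 34.4 CPM in controls, a log2 fold change of −0.42 ± 0.0907 (adjusted p = 0.00428, edgeR). The Ragulator subunit gene lamtor5 was at 107 ± 25.4 CPM in actl6a libraries and 165 ± 30.1 CPM in controls, at −0.63 ± 0.137 (adjusted p = 0.00468, edgeR). The kinase gene mtor, its inhibitor gene tsc1a and the ubiquitin ligase gene znrf1 fell by 0.76, 0.70 and 0.46 on the log2 scale. For each of these 5 genes at least 7 of 8 actl6a values lay under the control median. The transcription factor gene tfe3a had a log2 difference of 0.52 ± 0.191 (adjusted p = 0.0654, edgeR) and was called higher in DESeq2 and in limma-voom, and the rows of tfeb held at most 43 counts. With the scores of 4 other tissues as covariates none of the 5 was called, with adjusted p from 0.180 (lamtor5) to 0.826 (tsc1a) in edgeR's test, and the list median was −0.34. The log2 differences in that fit were −0.77 for lamtor5, −0.37 for rraga, −0.54 for mtor, −0.18 for znrf1 and −0.15 for tsc1a.

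Of 37 tested rows of lysosomal hydrolases and their cofactors, 4 rose and 2 fell, with a median log2 fold change of 0.17. The shares were 10.8% higher and 5.41% lower, against 7.90% and 8.52% over all accessions. The gene of gamma-glutamyl hydrolase, which trims folates in the lysosome, ggh, ran from 28.9 to 55.8 CPM with a median of 44.1 in actl6a libraries, against 0.650 to 9.32 CPM with a median of 6.63 in controls. All 8 actl6a libraries were above all 10 controls. It rose by 2.84 ± 0.321 on the log2 scale (adjusted p = 2.40e-05, edgeR) and by 3.17 with the tissue scores as covariates (adjusted p = 0.0185). The sulfatase-activating enzyme gene sumf1 rose by 0.84, while the carboxypeptidase gene prcp fell by 1.96 and the sulfatase gene gnsb by 0.68. The other called rows were the carboxypeptidase gene cpvl at 0.29 and the ceramidase gene asah1b at 0.26. The call of asah1b ended in 10 of 18 fits with a library left out (adjusted p up to 0.0952). It also ended with library totals in place of TMM factors (adjusted p = 0.0707), without the filter on low counts (adjusted p = 0.126) and in limma-voom (adjusted p = 0.0674). That of cpvl ended without the filter (adjusted p = 0.0795). Apart from ggh, none of these was called with the tissue scores as covariates, with adjusted p from 0.123 (cpvl) to 0.710 (gnsb). In that fit the log2 differences of sumf1, cpvl and asah1b were larger, at 1.04 ± 0.436, 0.47 ± 0.140 and 0.47 ± 0.146, and those of prcp and gnsb were smaller, at −0.70 and −0.26.

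Of 29 tested genes of the lysosome membrane and its transporters, 1 rose and 1 fell in edgeR's test. That is 6.90% called against 16.4% over all accessions, with a median of 0.17. In DESeq2, which called 10.9% of all accessions higher, 4 rose and 1 fell. With RLE factors 4 rose and 1 fell, against 1282 higher and 1155 lower of 14462 accessions. In limma-voom 3 rose and 1 fell, against 1244 higher and 1258 lower of 14462. With the replicate block or the tissue scores 0 were called, against 1058 of 13943 and 109 of 14462 accessions. The cystine exporter gene ctns was higher by 0.39 ± 0.132 (adjusted p = 0.0479, edgeR), a call that ended in 13 of 18 fits with a library left out (adjusted p up to 0.124). The receptor gene scarb2b fell by 1.78 ± 0.485 (adjusted p = 0.0173, edgeR). With the tissue scores as covariates its log2 difference was −1.45 ± 0.815 (adjusted p = 0.410). Of 11 tested genes of V-ATPase assembly and regulation, 0 rose and 1 fell, or 9.09% lower against 8.52% over all accessions, with a median of 0.05. The assembly factors vma21 and vma12 had log2 differences of 0.05 ± 0.0974 and 0.13 ± 0.0888. The 1 that fell was rilp, a Rab7 effector, at 10.9 ± 6.68 CPM in actl6a libraries and 31.8 ± 10.9 CPM in controls, a log2 fold change of −1.53 ± 0.321 (adjusted p = 0.00366, edgeR). With the tissue scores as covariates its log2 difference was about as large, −1.68, and not called (adjusted p = 0.170). Of 4 tested rows of cathepsin inhibitors 0 were called in edgeR's test, against 16.4% of all accessions, too few rows to be set apart from that share. An unadjusted p under 0.05 was found for 1, and all 4 log2 fold changes were below 0. DESeq2 also called 0, while limma-voom called 1 lower, against 1258 lower over all 14462 accessions. With library totals in place of TMM factors 2 were called lower, against 1608 over all accessions. The cystatin C gene cst3 had a log2 difference of −0.18 ± 0.0906.

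**Figure D5:**
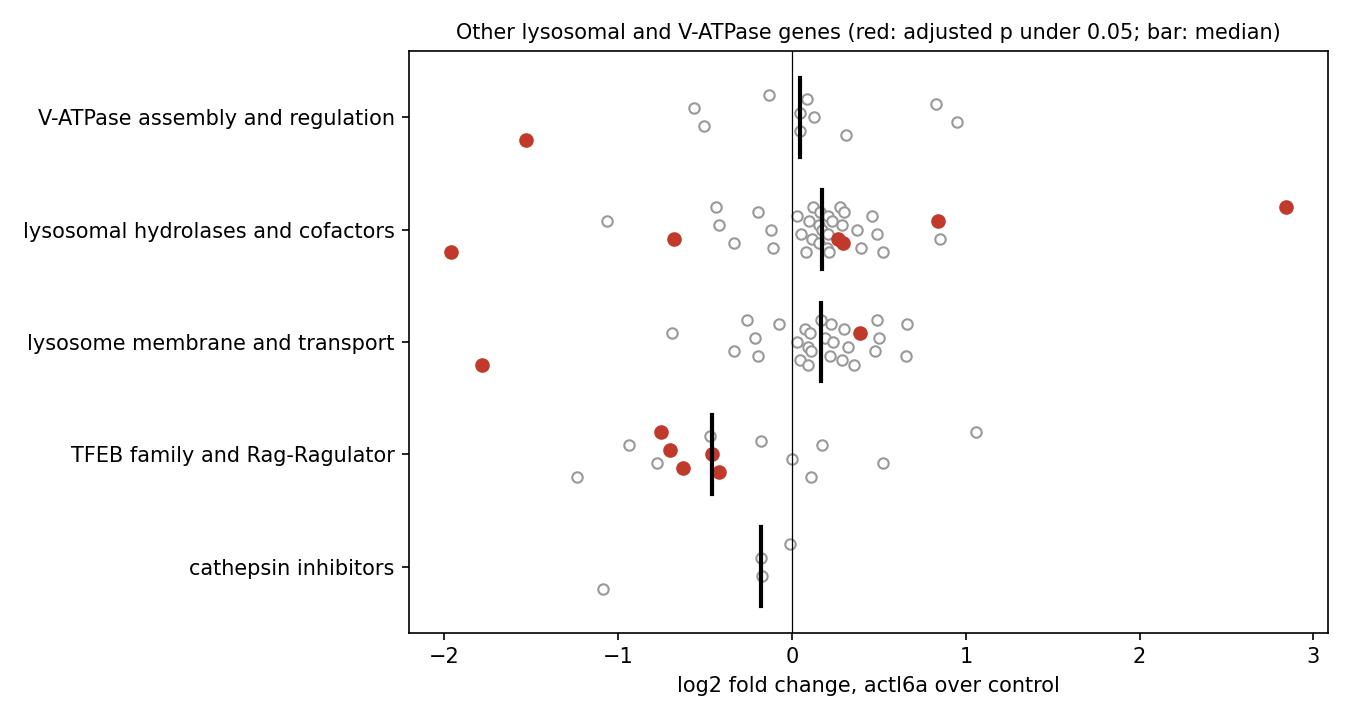
Log2 fold change of actl6a over control for every tested row of 5 lists of related genes. Red points have an adjusted p under 0.05 and black bars are list medians. The median is −0.46 for the TFEB family and Rag-Ragulator list and between −0.18 and 0.17 for the other 4, and ggh is the red point at 2.84.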

How the data were processed

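The authors deposited 1 count table per group, with raw counts per RefSeq accession and a column per library. Per the submitters' processing notes, cutadapt, FastQC, STAR, featureCounts and edgeR were used with build GRCz11, and their settings are not given in the sources used here. The 2 tables share 28575 of 32820 accessions. An accession in only 1 table, 0.0376% of counts, was taken as 0 in the other. Symbols came from a RefSeq table of another assembly (GRCz12tu), used for names and gene order only: 10586 accessions matched with their version and 9629 without it.

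Accessions were filtered with filterByExpr (minimum count 10), which left 14462 with 98.25% of counts. They were scaled by TMM factors and fitted in edgeR 4.0.16 (R 4.3.3) with the quasi-likelihood test and Benjamini-Hochberg adjustment over all tested accessions, with group as the only term and a threshold of 0.05. The biological coefficient of variation was 47.81%. SEs were taken from the log2 fold change and its test statistic, and 95% intervals use the t quantile at 16 degrees of freedom. Alternatives used DESeq2 1.42.0, limma 3.58.1, other scaling factors, no filter, sums per symbol, a replicate block, tissue scores and each library left out. Every called member was named, and members at 50 CPM or more were named with their level or their log2 difference. Of each related list, up to 4 called rows with the lowest p were named, and others were named after their values were seen. Members and lists were chosen with earlier results of these data known.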

Additional observations from a re-analysis of the deposited data

Results flagged for a closer look

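Over the 28 tested members, 56 sets of values (a member in a group) were examined for a library far from the others, and 4 held one. Chance gives about 1 in 20 such sets. Cathepsin D, ctsd, was at 369.85 CPM in actl6a replicate 3, where the next value was 280.87 CPM. The cathepsin S gene ctss2.1 was at 24.944 CPM in control replicate 6, where the next value was 4.1799 CPM. In control replicate 4 the V1 subunit C gene atp6v1c1a was at 158.69 CPM, with the next value at 121.15 CPM, and the cathepsin H gene ctsh was at 119.02 CPM, with the next value at 97.333 CPM. That library also had the highest control values of atp6v0b and atp6v1ba.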

How the results depend on the processing

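The number of members called higher was 3. It was 5 with RLE factors and 6 in DESeq2, and with a library left out it ran from 3 to 5, the 5 being without control replicate 6. The other settings gave 2 to 4, and 0 members were called lower in all of them. The V-ATPase median ran from 0.09 to 0.27 and the cathepsin median from 0.15 to 0.27, against 0.17 and 0.23 in the report. Deviations from the group means were compared between libraries of the same replicate number. Their correlations ran from −0.12 to 0.32, and 0 of 8 actl6a libraries were closest to the control of the same number. Tissue carried along can also move these correlations, so they do not settle whether replicate numbers pair the samples. With the replicate block over replicates 1 to 8, 2 members were called, since atp6v0b had 0.39 (adjusted p = 0.0564, edgeR), against 3 in the same 16 libraries without the block (adjusted p of atp6v0b = 0.04995), a setting chosen after seeing the data. The block gave medians of 0.11 (V-ATPase) and 0.16 (cathepsins), and 1058 calls over all accessions, against 1850 without it. In the TFEB and Rag-Ragulator list the block left 3 of 15 tested rows lower and 1 higher, tfe3a. Over all 13943 accessions tested with the block, 560 were lower and 498 higher. DESeq2, limma-voom and the same 16 libraries without the block also called tfe3a higher, as did 3 of the 18 fits with a library left out. Among the other related genes, sumf1, cpvl, asah1b, ctns and scarb2b were not called with the block (adjusted p from 0.0519 to 0.153, edgeR). In the same 16 libraries without it, sumf1, cpvl and scarb2b were called (adjusted p = 0.0236, 0.04535 and 0.04981). There asah1b and ctns were already not called (adjusted p = 0.09999 and 0.09375), so the block did not end their calls. Calls over all accessions numbered 109 with the tissue scores as covariates. Depth limits atp6v0a2b and atp6v0cb in controls, ctss2.1 and ctsf, whose counts went down to 10 or fewer in single libraries.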
